A study of Homo sapiens with 6 samples.

Results

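The clustered protocadherins were followed in human embryonic stem cells after depletion of the nucleolar RNA helicase DDX18. Members were the genes whose symbol places them in the alpha, beta or gamma protocadherin cluster, with pseudogenes left out, and 34 of the 17929 genes in the deposited table met this rule: 11 alpha, 12 beta and 11 gamma genes. Further protein-coding genes of the clusters were not analysed here. The 6 libraries came from the established stem cell lines H9 and HES2, each with 1 library for a hairpin against luciferase (shLuc, the control), 1 for shDDX18#1 and 1 for shDDX18#3. In all 6 the cells grew on irradiated mouse embryonic fibroblasts, received a hairpin virus and were collected on day 4. The arms thus share infection and feeders, and an uninfected culture was not analysed here. The labels name no separate cultures within a line, and each library is its own combination of line and hairpin. A p-value here thus covers the spread among the 6 libraries that a fit leaves over, which may be in part technical. The knockdown fit takes both DDX18 hairpins as 1 group, so its spread also holds any difference between them.

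Clustered protocadherins are cadherin-family adhesion proteins that bind copies of themselves on a neighbouring cell. In neurons each cell switches on its own small choice of them, which gives it a surface identity used in self-avoidance of its branches. Each alpha and gamma gene has its own promoter and a variable exon that encodes the extracellular part, spliced to constant exons that all genes of the cluster share, whereas beta genes lack such constant exons. Most of the promoters carry a conserved sequence element with the core CGCT, at which CTCF and cohesin loop a promoter to a distant enhancer, and methylation of the promoter goes with silence. The C-type genes (PCDHAC1, PCDHAC2 and PCDHGC3 to PCDHGC5) lie nearest the constant exons and are controlled in part separately from the rest.

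On GRCh38 (GENCODE 29) the alpha members lie at chr5:140794852-141012344, the beta members at chr5:141094578-141249365 and the gamma members at chr5:141350102-141512979, all on the plus strand. RefSeq (GRCh38.p14) promoter windows, from 250 bases before to 50 after each start, were matched for 30 of the 34 members. Windows of 60 bases, centred on the CGCT nearest before the start, are printed for 6 of the 7 members that differed between the lines below and for 4 alpha and gamma members that did not pass that test. Capitals mark every CGCT on the printed strand:
PCDHA6 (chr5:140827885-140827944): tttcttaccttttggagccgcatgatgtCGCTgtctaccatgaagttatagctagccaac
PCDHA10 (chr5:140855829-140855888): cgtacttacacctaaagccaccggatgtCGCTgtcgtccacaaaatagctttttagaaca
PCDHA12 (chr5:140875232-140875291): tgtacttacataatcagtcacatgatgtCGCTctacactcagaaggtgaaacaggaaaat
PCDHB5 (chr5:141135167-141135226): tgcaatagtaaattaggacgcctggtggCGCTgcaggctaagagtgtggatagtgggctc
PCDHB13 (chr5:141213853-141213912): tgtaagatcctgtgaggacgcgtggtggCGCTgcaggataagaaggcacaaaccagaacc
PCDHGB6 (chr5:141407936-141407995): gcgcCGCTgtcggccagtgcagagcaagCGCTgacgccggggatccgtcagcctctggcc
PCDHGB7 (chr5:141417595-141417654): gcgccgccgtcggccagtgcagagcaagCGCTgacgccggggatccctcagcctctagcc
PCDHGA10 (chr5:141412919-141412978): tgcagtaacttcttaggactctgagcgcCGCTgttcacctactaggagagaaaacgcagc
PCDHGA11 (chr5:141420960-141421019): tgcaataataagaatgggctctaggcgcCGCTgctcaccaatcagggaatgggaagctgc
PCDHGC3 (chr5:141475887-141475946): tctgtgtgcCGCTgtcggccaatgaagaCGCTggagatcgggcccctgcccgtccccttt
CGCT on either strand was present in the promoters of 29 of the 30 members, PCDHA9 being the exception, but also in 70.0% of all 35116 RefSeq promoters. The CTCF consensus, searched with its degenerate letters left free, was found in 1 member, PCDHB9, and in 2.41% of all promoters. Around the core the clusters differ in letters. The word GGTGGCGCTG, which contains the core and was picked after the sequences were seen, occurred in 10 of 11 beta promoters and in 0.276% of all promoters. PCDHB5 and PCDHB13 carry it in the windows above. The word ATGATGTCGC, picked the same way, occurred in 5 of 10 alpha promoters and 0.0313% of all; PCDHA6 and PCDHA12 hold it and PCDHA10 does not. The windows of PCDHGB6 and PCDHGB7 differ at 3 of 60 bases, and PCDHGB6 holds 2 copies of CGCT there where PCDHGB7 holds 1. The copy that PCDHGB7 lacks follows the letters gcgc, as the copies of PCDHGA10 and PCDHGA11 do. The CGCT nearest before the start, on which the windows are centred, thus need not be the core of the conserved element. Member promoters had a median GC content of 43.1%, against 58.7% over all promoters.

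The recovered totals ran from 2668179 to 4271741 reads per library, and the members together took 545 to 1043 of them, so many values rest on few reads. A level is given as CPM, counts per 1e+06 reads of the effective library size, in which 1 read is worth 0.224 to 0.408 CPM. DDX18 stood at 153, 19.2 and 47.3 CPM in H9 (shLuc, shDDX18#1, shDDX18#3) and at 161, 39.3 and 60.4 in HES2, a log2 difference of -2.0 with SE 0.35 (limma adjusted p = 0.0109). All 15 pluripotency markers examined, SOX2 and NANOG among them, were above 0 in all 6 libraries. Their summed level was 6474 and 6147 CPM in the shLuc libraries of H9 and HES2 and 2248 to 3319 CPM in the knockdown libraries.

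The members showed low but measurable expression. At least 1 read was counted for 31, 31 and 33 of the 34 members in H9, and for all 34 in each HES2 library. Only 11 members had at least 10 reads in every library, and 18 had under 50 reads over the 6 libraries together. The members' levels summed to 214, 223 and 241 CPM in H9 and 209, 301 and 290 CPM in HES2. Per kilobase of coding sequence that belongs to no other gene, PCDHB2 was the highest member in both lines, at a mean of 16.1 CPM per kilobase in H9 and 22.6 in HES2. In H9 it was followed by PCDHGC3 and PCDHAC2, both C-type genes, at 10.8 and 9.33. HES2 had PCDHA12, PCDHGB7 and PCDHA10 in the next places, at 10.6, 9.81 and 8.57. Neighbours in this order overlapped: over the HES2 libraries PCDHA12 ran from 6.50 to 14.0 and PCDHGB7 from 5.44 to 13.4 CPM per kilobase. The order also depends on the length used, because the levels are of whole genes and not of coding sequence alone. PCDHA10 had 2532 coding but 9555 exon bases of no other gene, PCDHB2 1774 and 3506, and PCDHGC3 2589 and 3251. The first place of PCDHB2 in H9 and the place of PCDHA10 in HES2 thus rest on the coding length.

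**Figure D1:**
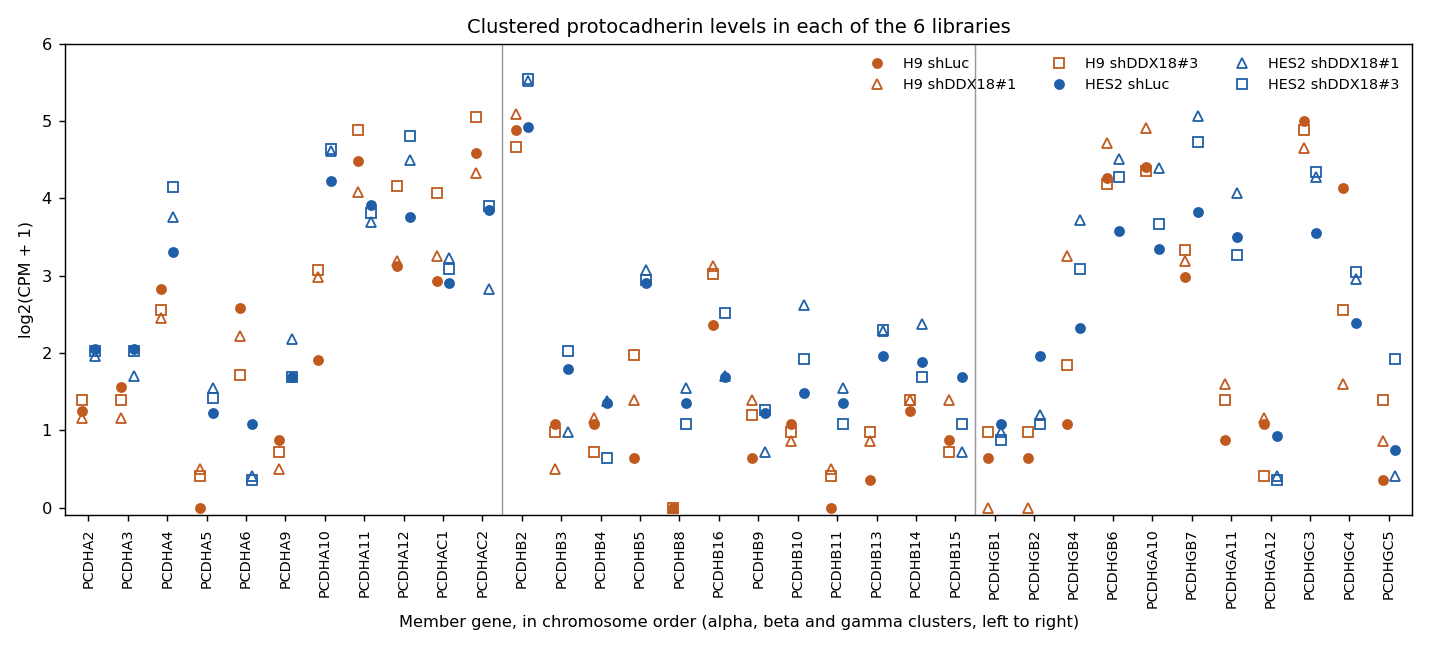
Level of each clustered protocadherin in each of the 6 libraries, on a log2(CPM + 1) scale. The H9 libraries and the HES2 libraries each keep a similar pattern of high and low members across the arms, and PCDHB2 is high in all 6.

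The pattern of high and low members went with the cell line. Over the 34 members the log2(CPM + 1) levels of libraries of the same line correlated with Pearson's r of 0.889 to 0.940 (6 pairs), and those of libraries of different lines with r of 0.663 to 0.844 (9 pairs). For all tested genes the same ranges were 0.898 to 0.977 and 0.855 to 0.963. These are descriptions across genes, which are not independent replicates. By cluster, the ranges lay apart only in alpha, at 0.912 to 0.976 within a line and 0.436 to 0.847 between lines. They overlapped in beta (0.891 to 0.965 and 0.702 to 0.908) and in gamma (0.805 to 0.964 and 0.690 to 0.860).

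Between HES2 and H9, with the arm as a block, 5 members were higher in HES2 (PCDHA10, PCDHB5, PCDHB13, PCDHGA11 and PCDHGB7) and 2 were lower (PCDHA6 and PCDHAC2), at a limma adjusted p under 0.05 over all genes tested. These 7 of 33 tested members make up 21.2%, where 5.42% of all tested genes were called (1.44% higher and 3.98% lower). Genes were tested on log2(CPM + 1) where 2 or more libraries reached 1 CPM. PCDHGB1 did not meet this, and 6 members (PCDHA5, PCDHA9, PCDHB8, PCDHB11, PCDHB13 and PCDHGB2) reached 1 CPM only in HES2 and PCDHGA12 only in H9, so the counts over tested members are a description.

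PCDHGA11, a gamma gene of the A type (ENSG00000253873, chr5:141421047-141512979), stood at 0.831, 2.04 and 1.62 CPM in H9 (shLuc, shDDX18#1, shDDX18#3) and 10.3, 15.8 and 8.63 CPM in HES2. Every HES2 library lay above every H9 library. The log2 difference was 2.32 with SE 0.29, or 5.0-fold with a 95% interval of 3.15 to 7.94 (adjusted p = 0.00379). As a share of the reads of the gamma members PCDHGA11 ran from 0.852% (95% exact binomial interval 0.176 to 2.47, counting error only) to 2.02% (0.658 to 4.64) in H9, and from 8.36% (5.75 to 11.7) to 15.1% (11.3 to 19.6) in HES2. PCDHGB7 (ENSG00000254122, chr5:141417645-141512979), a gamma gene of the B type and the neighbour of PCDHGA11, stood at 6.92, 8.17 and 9.08 CPM in H9 and 13.2, 32.5 and 25.6 in HES2. The groups did not overlap, and the log2 difference was 1.37 with SE 0.25 (adjusted p = 0.0170). PCDHGB7 was the gamma member with the most reads in all 3 HES2 libraries, with 59, 101 and 92 reads, and had 25, 20 and 28 reads in H9. PCDHGB6 stood at 18.3, 25.3 and 17.2 CPM in H9 and 10.95, 21.9 and 18.4 in HES2. Its libraries overlapped between the lines, at a log2 difference of -0.27 with SE 0.21 (adjusted p = 0.533). The difference between PCDHGB6 and PCDHGB7 was not tested, nor was a link to their promoter windows, which are of the reference genome and not of H9 or HES2.

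In the alpha cluster PCDHA10 (ENSG00000250120, chr5:140855883-141012344) stood at 2.77, 6.94 and 7.46 CPM in H9 and 17.7, 23.5 and 23.9 in HES2, with no overlap. The log2 difference was 1.83 with SE 0.24, or 3.56-fold with a 95% interval of 2.42 to 5.24 (adjusted p = 0.00481). Of the reads of the alpha members it made up 3.61% (1.74 to 6.54) to 9.88% (5.86 to 15.4) in H9 and 21.0% (17.0 to 25.5) to 24.7% (19.9 to 30.1) in HES2. PCDHAC2 (ENSG00000243232, chr5:140966235-141012344), a C-type gene, went the other way, at 23.0, 19.2 and 32.1 CPM in H9 and 13.4, 6.11 and 13.9 in HES2. It was the alpha member with the most reads in all 3 H9 libraries, with 27.3% (20.8 to 34.6) to 30.0% (24.6 to 35.7) of them, and held 6.44% (3.92 to 9.88) to 15.96% (12.4 to 20.1) in HES2. Its log2 difference was -1.13 with SE 0.22 (adjusted p = 0.0224). PCDHA6 (ENSG00000081842, chr5:140827958-141012344) stood at 4.98, 3.68 and 2.27 CPM in H9 and 1.12, 0.322 and 0.278 in HES2, where the last values are single reads. The log2 difference was -1.56 with SE 0.31 (adjusted p = 0.0266). PCDHA11 and PCDHA12, the other abundant alpha members, did not pass. PCDHA11 stood at 21.3, 15.9 and 28.5 CPM in H9 and 14.1, 11.9 and 13.1 in HES2, and PCDHA12 at 7.75, 8.17 and 16.9 against 12.5, 21.6 and 27.0, with adjusted p of 0.109 and 0.0665.

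Beta genes have no shared constant exons, and 0 to 24.9% of their exon bases belong to another gene as well. Of their exon stretches of 50 bases, 10.3 to 45.8% also occur in another gene of the clusters. This share was 12.3% for PCDHB5, 23.6% for PCDHB13 and 45.8% for PCDHB8, so the split of reads is uncertain here too. PCDHB5 (ENSG00000113209, chr5:141135218-141138625) stood at 0.554, 1.63 and 2.92 CPM in H9 and 6.48, 7.40 and 6.68 in HES2, a log2 difference of 1.64 with SE 0.34 (adjusted p = 0.0291). PCDHB13 (ENSG00000187372, chr5:141213919-141218979) stood at 0.277, 0.817 and 0.973 CPM in H9, which are 1 to 3 reads, and 2.91, 3.86 and 3.90 CPM in HES2 (log2 difference 1.45, SE 0.31, adjusted p = 0.0329). Neither gene overlapped between the lines. PCDHB13 reached 1 CPM only in HES2, so it was tested only through the line where it is high, and its p is a description. PCDHB8, chosen for mention after its values were seen, had 0 reads in all 3 H9 libraries and 7, 6 and 4 in HES2, and did not pass (adjusted p = 0.0557). PCDHB2, the most abundant beta gene, stood at 28.5, 33.1 and 24.3 CPM in H9 and 29.5, 44.7 and 45.9 in HES2 (adjusted p = 0.211). It held between 52.4% (46.0 to 58.7) and 72.0% (63.9 to 79.2) of the reads of the beta members in every library. PCDHB16 leaned to H9, at 4.15, 7.76 and 7.13 CPM against 2.24, 2.25 and 4.73 (adjusted p = 0.151).

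**Figure D2:**
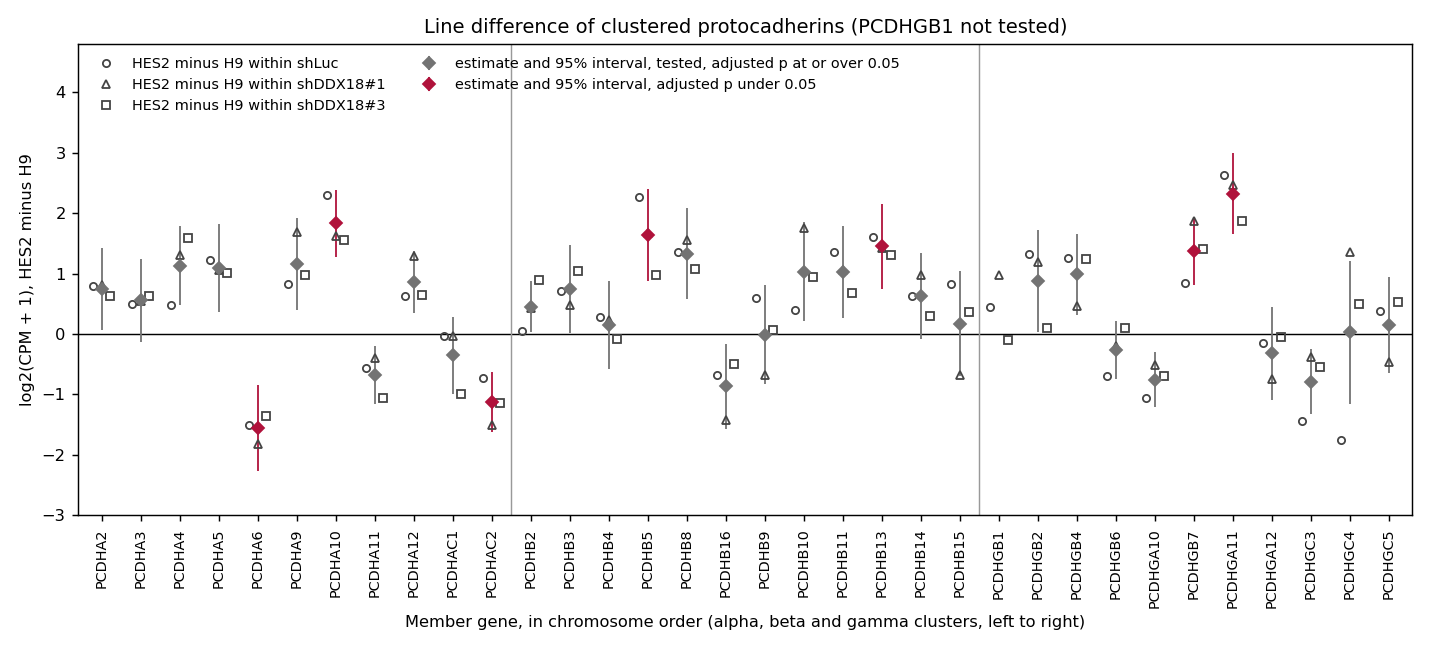
Log2 difference HES2 minus H9 of each tested member with its 95% interval from limma, open symbols giving the difference within each arm and red marking members at an adjusted p under 0.05. PCDHGA11 (2.32) and PCDHA10 (1.83) lie farthest above 0, and PCDHA6 (-1.56) and PCDHAC2 (-1.13) farthest below it.

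Among the remaining members, PCDHGC3 stood at 31.0, 24.1 and 28.5 CPM in H9 and 10.7, 18.3 and 19.2 in HES2, and PCDHGA10 at 20.2, 28.99 and 19.5 against 9.17, 20.0 and 11.7 (adjusted p = 0.0971 and 0.0689). In all, 15 tested members had every HES2 library above every H9 library, 4 had every one below, and 14 overlapped, where 7.78% and 6.56% of all tested genes lay apart in those directions. The beta cluster had 6 members above and 0 below, the alpha cluster 6 and 3, and the gamma cluster 3 and 1. At an unadjusted p under 0.05 there were 23 members, 17 of them higher in HES2, beside 21.1% of all genes. The median log2 difference of the tested members was 0.63, against 0.03 over all genes. The 15 include all 6 members that reached 1 CPM only in HES2, with PCDHB8, PCDHB11 and PCDHB13 in the beta cluster. Such members passed the filter only through the line where they are high, so these counts and the median are a description.

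The line calls depended on the pairing of libraries by arm and on which arms were fitted. Leaving out either library of an arm takes that arm out of the paired comparison. Without the block 0 members passed (0.203% of all genes), and DESeq2 called 4 members and edgeR 8. Without H9 shDDX18#3 or without HES2 shDDX18#3 0 members passed, without either shDDX18#1 library PCDHA10 and PCDHGA11 passed, and without either shLuc library 10 did, the 7 among them. The alpha and gamma members share 21.3 to 64.4% of their exon bases with other genes, and how reads in shared exons were counted is not given in the sources used here. Of the stretches of 50 bases in their exons, 34.2% for PCDHA10, 59.4% for PCDHA6, 48.4% for PCDHGB7 and 37.3% for PCDHGA11 also occur in another gene of the clusters, so the split of reads between them is uncertain.

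Genes listed as markers of other cells differed between the lines as well, and which cells they came from was not tested. Of 19 fibroblast and feeder markers, 14 were lower in HES2 and 0 higher (COL1A1, a collagen chain, by -3.53). Their summed level was 6443 to 97752 CPM in H9 and 2290 to 34328 in HES2, and DCN and FAP were at 0 in HES2 shLuc and HES2 shDDX18#3. FN1 was the largest part of this sum in every library, at 2424 to 51833 CPM in H9 and 1025 to 27157 in HES2. FN1 itself was not called between the lines (-0.80, limma adjusted p = 0.0770). Of 10 neural markers 2 were lower in HES2 (NCAM1, a neural adhesion protein, by -1.29, and MAP2, a dendritic protein, by -1.52). The neural sums were 515 to 822 CPM in H9 and 397 to 469 in HES2, mostly NES (407 to 736 and 345 to 419 CPM). The part of these markers in the line differences of the protocadherins was not tested. In bulk RNA fewer cells of a type and less RNA per cell cannot be told apart.

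In the same comparison of lines, of 22 measured neighbours on the same arm of chromosome 5, 0 were called, with a median log2 difference of 0.07 (3 at an unadjusted p under 0.05, ARAP3 having the smallest p, at 0.58 with adjusted p = 0.0532). Likewise called were 0 of 16 genes of CTCF, cohesin and its regulators, 0 of 8 DNA methylation and demethylation genes, 0 of 16 genes of heterochromatin silencing and 0 of 22 partners in signalling and cleavage, with 1, 0, 4 and 3 at an unadjusted p under 0.05. Of 13 protocadherins and related cadherins outside the clusters 1 was higher in HES2, PCDH15, a protein of hair cell tip links, at 1.64 (adjusted p = 0.0258).

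DDX18 depletion, with both hairpins as 1 group, was compared with shLuc to ask what the helicase does for stem cell identity. Of the 33 tested members 0 rose and 0 fell at a limma adjusted p under 0.05, where 15.9% of all tested genes passed (9.6% up, 6.26% down). At an unadjusted p under 0.05 there were 4 members, all higher, which is 12.1% beside 33.1% of all genes, and edgeR and DESeq2 on the recovered reads each called 0. The log2 differences ran from -0.73 to 1.28 with a median of 0.21, against -0.02 over all genes, and 20 of 33 were above 0. Their median size without sign was 0.35, against 0.40 over all genes. Of the tested members 1 had every knockdown library above both shLuc libraries and 0 had every one below, where 19.8% and 20.9% of all genes did (40.7% in either direction). It was PCDHAC1, a C-type gene named after its values were seen, at 6.64 and 6.48 CPM in shLuc of H9 and HES2 and 8.58, 15.9, 8.37 and 7.52 CPM in the knockdowns. In summed level the beta members went from 39.6 CPM in H9 shLuc to 51.0 and 41.8 in shDDX18#1 and shDDX18#3, and from 56.3 to 75.3 and 74.6 in HES2. The alpha sums were 76.7, 70.2 and 112 CPM in H9 and 84.1, 94.9 and 113 in HES2, and the gamma sums 97.5, 101 and 87.2 against 68.2, 130 and 103.

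**Figure D3:**
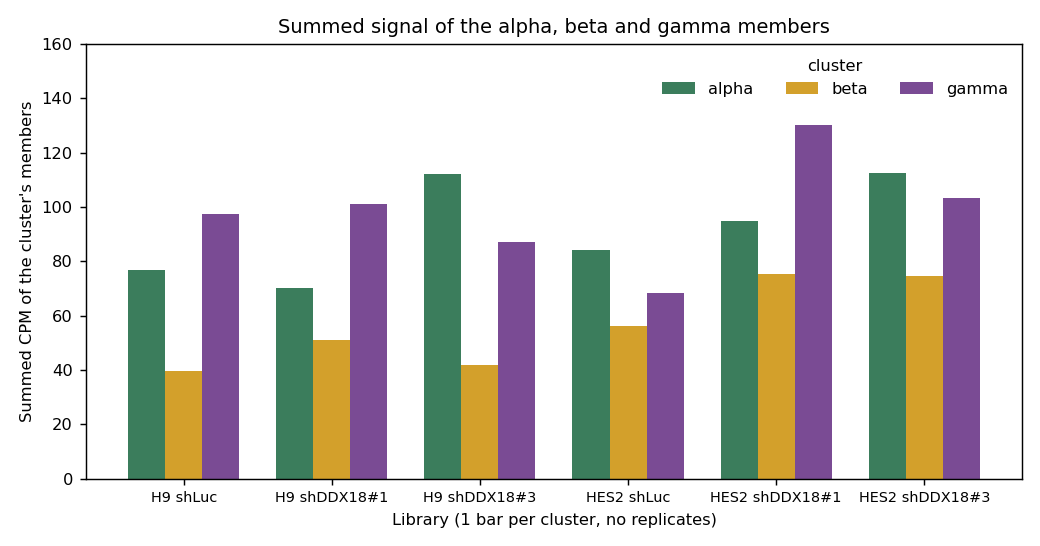
Summed CPM of the alpha, beta and gamma members in each library, 1 bar per cluster and library without replicates. The gamma sum of HES2 runs from 68.2 CPM in shLuc to 130 in shDDX18#1, and that of H9 stays between 87.2 and 101.

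The 4 members with the smallest p were PCDHA10, PCDHGB4, PCDHGB7 and PCDHA12, at log2 differences of 0.76, 1.28, 0.68 and 0.72 and adjusted p of 0.0813, 0.0816, 0.118 and 0.143. PCDHGB4 (ENSG00000253953), a gamma gene chosen for mention after its values were seen, stood at 1.11 CPM in H9 shLuc and 8.58 and 2.59 in the knockdowns, and at 4.02 against 12.2 and 7.52 in HES2. It was above its own line's shLuc in all 4 knockdown libraries, by 2.18 and 0.77 log2 units in H9 and 1.40 and 0.76 in HES2. In the authors' deposited table it is the 1 member with a false discovery rate under 0.05 (log2 fold change 1.63, rate 0.0202), where 22.9% of the genes have one. Of its exon stretches of 50 bases 71.1% also occur in another gene of the clusters. Without H9 shDDX18#3 it passed (1.55, adjusted p = 0.0299), and without H9 shDDX18#1 PCDHA12 passed instead (0.95, adjusted p = 0.0297).

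The knockdown difference of HES2 minus that of H9 called 0 members and 0% of all genes, with 2 members and 4.43% of genes at an unadjusted p under 0.05, and 0 members in edgeR or DESeq2. Both were C-type gamma genes. PCDHGC4, which in mice supports the survival of neurons, stood at 16.6 CPM in H9 shLuc and 2.04 and 4.86 in its knockdowns, and at 4.25 against 6.76 and 7.24 in HES2. The knockdown libraries lay below shLuc in H9 and above it in HES2, and the interaction was 2.67 with SE 0.72 (limma adjusted p = 1.00 over all genes). PCDHGC4 was chosen for mention after its values were seen. For PCDHGC3 the interaction was 0.99 (limma adjusted p = 1.00 over all genes).

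**Figure D4:**
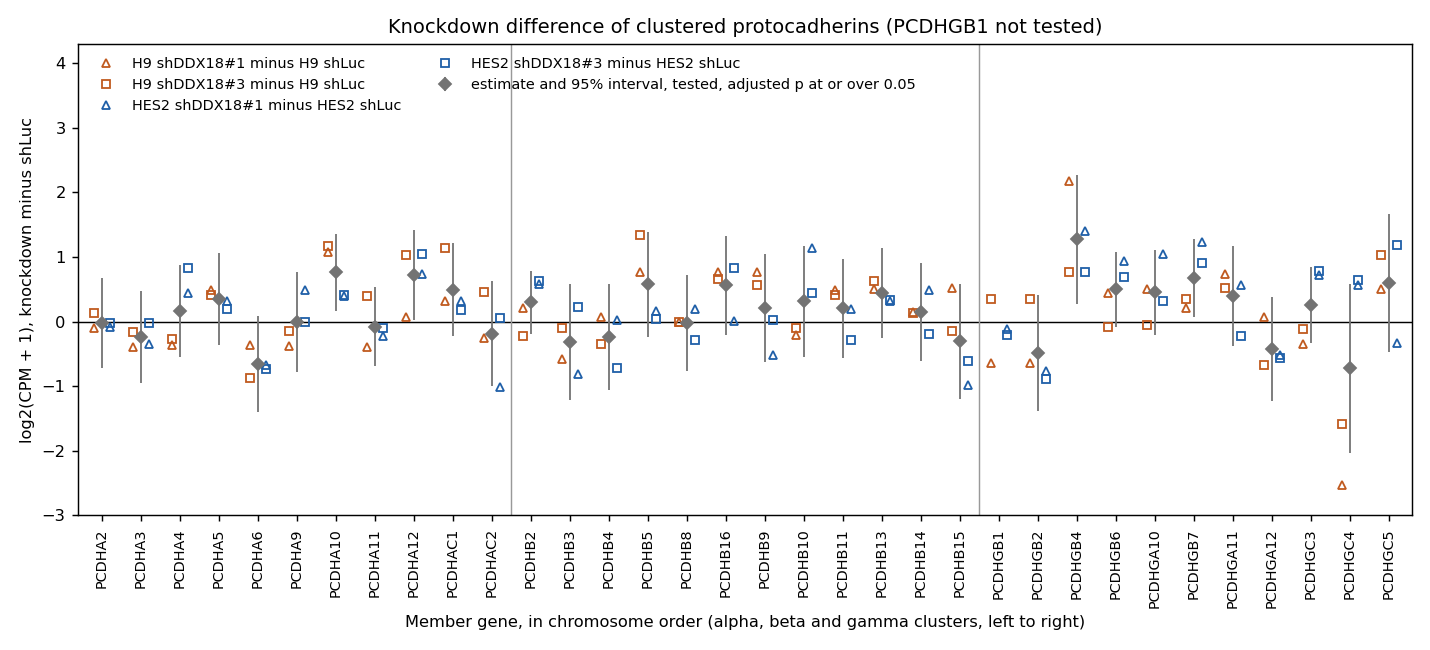
Log2 difference knockdown minus shLuc of each tested member, with its 95% interval and, as open symbols, the 4 knockdown libraries against their own line's shLuc. The fitted differences lie between -0.73 (PCDHGC4) and 1.28 (PCDHGB4), and 0 members were called.

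Lists of other genes around the pathway were counted in the same knockdown comparison, in which 15.9% of all tested genes passed. The share called was 38.5% of the protocadherins and related cadherins outside the clusters, 50% of the DNA methylation genes and 18.8% of the heterochromatin genes. It was 13.6% of the signalling and cleavage partners, 9.09% of the neighbours on chromosome 5 and 6.25% of the CTCF and cohesin genes. These are 3, 2 and 1 genes, too few to set apart from that background. At an unadjusted limma p under 0.05 the shares of these 3 lists were 27.3%, 31.8% and 50%, beside 33.1% of all genes. The heterochromatin share rests on 3 of 16 genes, likewise too few to set apart, with 43.8% at an unadjusted limma p under 0.05. The DNA methylation list and that of protocadherins and related cadherins outside the clusters hold only 8 and 13 genes. No list was tested against the background. Of the 13 protocadherins and related cadherins outside the clusters 4 rose, PCDH7 (2.18), PCDH8 (1.91), PCDH17 (1.69) and PCDH10 (1.10), and the photoreceptor cadherin CDHR1 fell by 1.84. Of 8 DNA methylation and demethylation genes the de novo methyltransferase DNMT3B (-1.95, also among the pluripotency markers), UHRF1, which recruits maintenance methylation (-1.49), and the demethylase TET1 (-1.27) fell, and TET2 rose (1.35). Of 16 CTCF and cohesin genes 1 fell, CDCA5, which protects cohesin on sister chromatids (-0.94). CTCF itself, named after its value was seen, was at -0.50 (adjusted p = 0.0941). Of 16 genes of heterochromatin silencing the corepressor TRIM28 (-0.87), the histone methyltransferase EHMT1 (-0.55) and the heterochromatin protein CBX3 (-0.64) fell. Of 22 partners in signalling and cleavage 3 rose and 0 fell, among them the protease subunit NCSTN (0.58) and the actin regulator ABI1 (0.58). Among the 22 neighbours on chromosome 5 the histidyl-tRNA synthetase HARS (0.79) and SRA1 (0.64) rose, and 0 fell. In the same libraries 13 of 19 fibroblast and feeder markers and 1 of 10 neural markers (PAX6, 2.25) rose, and 11 of 15 pluripotency markers fell. The summed fibroblast and feeder level was 2290 and 6443 CPM in shLuc and 20727 to 97752 in the knockdowns, and the neural sum 439 and 568 against 397 to 822. FN1 made up the largest part of the fibroblast and feeder sum in every library. Most of the neural sum was NES, at 410 and 525 CPM against 345 to 736, with a log2 difference of -0.03. At an unadjusted limma p under 0.05 there were 6 of the 10 neural markers, 5 of them higher. The part of these cell markers in the knockdown differences was not tested.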

How the data were processed

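Messenger RNA of 6 libraries was sequenced, and per the submitters' processing notes edgeR 3.26.8, HTSeq 0.11.2, SAMtools 1.9 and Bowtie2 2.3.4.3 were used on hg19; their roles are not given in the sources used here. The authors deposited 1 table, whose columns hold the normalized signal of the 6 libraries and, for knockdown against shLuc, p-values before and after adjustment, log2 fold changes, log2 mean abundances and a likelihood ratio score. The signal is CPM of an effective library size: 100% of the values were whole reads, within a tolerance of 0.001, after division by the value of 1 read. Neither the score nor the abundance was used.

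Levels were tested as log2(CPM + 1) with limma 3.58.1 (trend) in R 4.3.3 over the 17768 genes that reached 1 CPM in 2 or more libraries, with Benjamini-Hochberg adjustment, and 161 genes were left out. Knockdown was fitted with the cell line as a block, HES2 against H9 with the arm as a block, and their interaction on 3, 2 and 2 residual degrees of freedom. The pairing comes from the labels: same-numbered libraries are the same line. The fits were tested on simulated data. Alternatives included DESeq2 1.42.0 and edgeR 4.0.16 run on the whole reads and each library left out. Gene positions, exons and shared stretches come from GENCODE 29 on GRCh38 and promoters from RefSeq, and hg19 positions were not used here. Sharing was computed on that annotation, not on the authors'.

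Values per library are given for members called in a comparison and the 3 members of highest mean signal in each cluster, and for other lists up to 4 called members of smallest p or otherwise the smallest p. The value of 1 gene that this rule names is not reported here. The members and lists were chosen with earlier results of these data known.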

Additional observations from a re-analysis of the deposited data

How the results depend on the processing

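In the HES2 against H9 comparison 5 members were higher and 2 lower. The higher count was 8 when scaled to the table total, 3 in limma without the trend, 3 in DESeq2 and 0 with no replicate block, and leaving out 1 library gave 0 to 8. The lower count was 1 with a filter of 5 CPM, which leaves 16 members, 1 without the trend, 1 in DESeq2 and 0 with no replicate block, and leaving out 1 library gave 0 to 2. Leaving out a library removes its arm from this paired comparison, and the cause of the other shifts was not tested. PCDHA10 and PCDHGA11 were called in 14 of 17 alternatives, and 0 of the named members changed direction between the lines. Of the 17, 6 leave out 1 library. Both libraries of an arm gave the same calls when left out, so these are not separate checks. For knockdown the higher count was 0 to 1 when 1 library was left out and 0 under the other alternatives, no replicate block included. With 1 library left out the knockdown difference changed sign for 4 of the 14 members named by the rule, for which alone it was followed, and 0 of these 4 had passed. PCDHA11 ran from -0.26 to 0.081 (0.081 without H9 shDDX18#1, 0.0024 without HES2 shLuc) and PCDHAC2 from -0.48 to 0.11 (0.11 without HES2 shLuc, 0.083 without HES2 shDDX18#1). PCDHB2 ran from -0.0072 to 0.60 and PCDHGC3 from -0.23 to 0.75, in both cases with the lowest value without HES2 shLuc. DDX18 ran from -2.30 to -1.69 when 1 library was left out, and did not pass without H9 shLuc (-1.70, limma adjusted p = 0.142) or HES2 shLuc (-2.30, adjusted p = 0.0869). Among the 18 members with under 50 reads in all are PCDHA6 (41 reads) and PCDHB13 (45 reads), so these line calls rest on few reads.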

Other observations

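Of the clusters, 2 further transcripts in the table that are no members were examined. Genes were not searched by position, so others may be present. PCDHB1-AS1, an antisense transcript at PCDHB1, stood at 11.1, 15.5 and 12.97 CPM in H9 (shLuc, shDDX18#1, shDDX18#3) and 9.84, 17.7 and 17.0 CPM in HES2. The library kit keeps no strand, so its reads cannot be told apart from those of PCDHB1. Its limma log2 difference was 0.55 for knockdown (adjusted p = 0.141) and 0.13 for HES2 minus H9 (adjusted p = 0.781). The pseudogene PCDHGB8P had 4, 0 and 3 reads in H9 and 1, 4 and 1 in HES2.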
